A study of Mus musculus with 17 samples.

Results

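Foxa1, Foxa3, Hhex, Pdx1, Epcam, Krt8, Krt18, Krt19, Cldn4 and Cldn6 are 10 genes of the endoderm that lines the early gut and of simple epithelia. They were taken by symbol from a table of 41709 gene rows, and all 10 were found. Their levels were compared in single whole mouse embryos of 4 groups. The level is given in TPM, an abundance per transcript length that sums to the same total in every library, so levels can be compared between genes but read depth is unknown. Of the 10 genes, 9 reached a TPM of 1 in at least 4 libraries of each comparison and were tested, and Pdx1 did not and is given by its values.

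RNA of 17 C57BL/6J embryos was sequenced, 1 embryo per library. At E9.5, Disp1CS/+ dams were crossed to Disp1INDEL/+ sires, giving 4 wild-type embryos (Disp1_WT) and 4 Disp1CS/INDEL embryos, which carry both mutant alleles (Disp1_CS_INDEL). At E8.5, intercrosses of Myo10m1J/+ mice gave 4 Myo10+/+ embryos (Myo10_WT) and 5 Myo10m1J/m1J embryos (Myo10_m1J). Disp1 encodes Dispatched, which releases lipid-modified Hedgehog ligand from producing cells, and Myo10 encodes a filopodial motor, and the series concerns their part in carrying morphogens on signalling filopodia. Which of the embryos were littermates is not labelled. The targeted transcript was read first: Myo10 was 25.8 ± 6.02 TPM in Myo10_WT (SD, n = 4) and 3.61 ± 0.885 TPM in Myo10_m1J (SD, n = 5). The Disp1 transcript averaged 17.5 ± 1.74 TPM in the E9.5 wild types and 14.3 ± 1.98 TPM in the Disp1 mutants (SD, n = 4 each), with overlapping ranges, so it does not separate the genotypes.

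The definitive endoderm leaves the primitive streak as a sheet, displaces and mixes with visceral endoderm, and folds into a tube from which thyroid, lung, liver, pancreas and intestine bud. Forkhead box A proteins open chromatin at endodermal genes and homeodomain factors such as Hhex and Pdx1 mark the sites of single organs. The cells are held together by the adhesion glycoprotein Epcam and by tight junctions built from claudins, and their intermediate filaments are pairs of a type I and a type II keratin. Most of these epithelial genes are not confined to the gut: yolk sac endoderm and surface ectoderm express several of them, so a whole-embryo level sums these sources.

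The 5' flanks of 4 of the genes named often below are shown as a description, and no difference in level rests on them. Krt8 and Krt18 encode the partner keratins of simple epithelia, are neighbours on chromosome 15 and had levels that moved together. Foxa1 and Foxa3 are paralogs whose levels differed in opposite directions between the ages. Each line gives the 250 bases before the annotated start, 5' to 3' on the gene's strand, from RefSeq on GRCm38.p6, at chr15:102004343-102004592 (minus strand) for Krt8, chr15:102027966-102028215 (plus strand) for Krt18, chr12:57546112-57546361 (minus strand) for Foxa1 and chr7:19023540-19023789 (minus strand) for Foxa3. Capitals mark the E-box letters CAGGTG, the TATA-box letters TATAAA and the forkhead letters TGTTTAC, each also as its reverse complement.
Krt8: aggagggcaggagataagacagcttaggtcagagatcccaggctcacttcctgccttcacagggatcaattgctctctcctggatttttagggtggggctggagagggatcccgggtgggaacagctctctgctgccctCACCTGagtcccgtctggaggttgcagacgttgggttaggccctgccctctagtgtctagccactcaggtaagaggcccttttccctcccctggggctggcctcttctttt
Krt18: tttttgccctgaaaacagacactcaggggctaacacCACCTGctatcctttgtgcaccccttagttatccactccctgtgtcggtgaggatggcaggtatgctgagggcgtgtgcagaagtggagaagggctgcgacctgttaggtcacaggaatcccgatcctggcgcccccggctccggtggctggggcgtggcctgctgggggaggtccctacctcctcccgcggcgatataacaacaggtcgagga
Foxa1: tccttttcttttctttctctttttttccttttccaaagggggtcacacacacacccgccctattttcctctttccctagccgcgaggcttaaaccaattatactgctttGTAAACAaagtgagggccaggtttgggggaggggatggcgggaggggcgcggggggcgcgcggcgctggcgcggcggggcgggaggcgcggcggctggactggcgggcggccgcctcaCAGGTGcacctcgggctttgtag
Foxa3: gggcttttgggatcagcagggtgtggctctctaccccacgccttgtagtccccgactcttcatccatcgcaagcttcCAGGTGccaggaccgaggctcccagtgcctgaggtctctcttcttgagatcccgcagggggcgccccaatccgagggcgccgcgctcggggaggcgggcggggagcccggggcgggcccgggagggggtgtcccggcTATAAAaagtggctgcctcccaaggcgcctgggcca
The E-box, a sequence bound by zinc-finger repressors of epithelial genes such as Snai1 and Zeb1, stood on either strand in all 4. Windows of 300 bases (250 before to 50 after the start) were found for 9 of the 10 genes, all but Krt19, and 8 of these held the E-box letters on either strand, the exception being Hhex. The same letters occurred in 20.2% of all 32851 windows of that length and in 17.6% of the 12755 windows of protein-coding genes with a mean of at least 1 TPM. The TATA-box letters occurred in Foxa3 and Krt8, against 13.6% of all windows, and in Krt8 both matches overlap each other and lie across the annotated start, outside the printed bases. The forkhead letters occurred in Foxa1, against 3.65% of all windows. The GC-box letters GGGCGG, searched on both strands, occurred in 6 of the 9, against 35.7% of all windows and 63.5% of those of expressed coding genes. The motifs were chosen after the sequences were seen, and a match describes letters, not a bound site.

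The 10 genes covered a wide range of levels, and the structural genes stood far above the transcription factors. In Myo10_WT, Krt8 averaged 462 ± 84.0 TPM, Krt18 391 ± 70.2 TPM and Cldn6 159 ± 21.9 TPM (SD, n = 4). Krt8 ranked 220 of 12633 genes by mean level in that group, and 571 of 13336 in Disp1_WT. Epcam, Krt19 and Cldn4 lay between 19.0 and 65.7 TPM in all 17 embryos. Foxa1 lay between 1.39 and 9.16 TPM, Foxa3 between 0.576 and 6.20 TPM and Hhex between 1.54 and 3.88 TPM. Pdx1, required for the pancreas and duodenum, lay between 0.219 and 1.38 TPM and overlapped among all 4 groups.

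**Figure D1:**
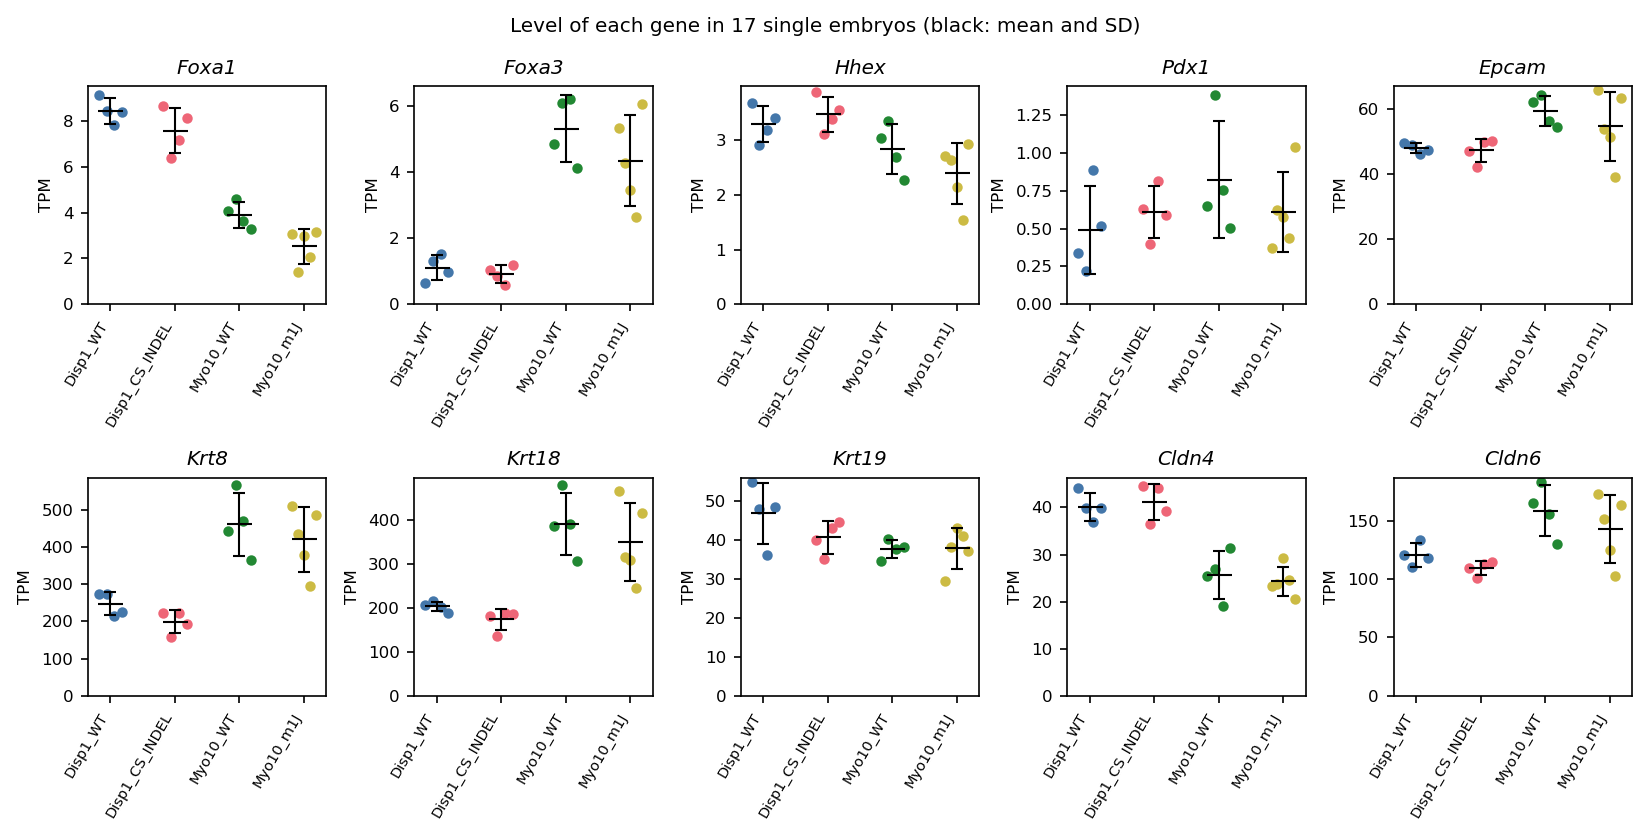
Level (TPM, linear axis from 0) of each of the 10 genes, 1 panel per gene and 1 point per embryo, in Disp1_WT and Disp1_CS_INDEL (E9.5, n = 4 each) and Myo10_WT and Myo10_m1J (E8.5, n = 4 and 5), with black bars for the mean and SD. Krt8, Krt18 and Foxa3 are higher in every E8.5 embryo than in any E9.5 embryo, Foxa1 and Cldn4 are lower in every one, and genotypes within an age mostly overlap.

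Of the gut factors read as a check, Foxa2, Sox17 and Cdx2 were present at both ages, while Ptf1a and Nkx2-1 were near 0 at E8.5. Foxa2, the forkhead factor of the endoderm, notochord and floor plate, was 13.2 ± 1.69 TPM in Disp1_WT and 15.5 ± 1.95 TPM in Myo10_WT (SD, n = 4 each). Sox17, an early endoderm factor that endothelium also expresses, averaged 3.67 TPM and 7.36 TPM in these groups. The hindgut factor Cdx2 averaged 16.1 TPM in Disp1_WT (range 3.08 to 21.9) and 86.9 TPM in Myo10_WT (range 25.9 to 120). Ptf1a, the early pancreatic factor, averaged 0.395 TPM in Disp1_WT and 0.0180 TPM in Myo10_WT, and Nkx2-1, the thyroid and lung factor, 4.00 TPM and 0.0283 TPM. These factors are also expressed outside the gut, and the libraries do not assign a transcript to a tissue.

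The libraries of the ages differed in composition, and so did single embryos. Structural RNAs (7SL, 7SK and the RNAs of RNase MRP and RNase P) made up 0.00524% to 0.0132% of TPM in the E9.5 libraries, 29.7% to 36.9% in Myo10_WT and 32.2% to 44.5% in Myo10_m1J. Protein-coding genes, leaving out replication histone and mitochondrial genes, took 92.8% to 94.6% at E9.5 and 40.8% to 55.3% at E8.5. The structural RNA share lowers the TPM of every other gene at E8.5. Replication histone RNA made up 0.0187% to 0.0240% of TPM at E9.5 and 6.79% to 8.66% at E8.5. One library kit is named for all samples, and whether the E8.5 libraries were nonetheless made or quantified in another way is not given in the sources used here, so age and a difference in method cannot be told apart. The summed TPM of 19 yolk sac endoderm genes was 94.9 to 120 in Disp1_CS_INDEL, 1115 to 3321 in Myo10_WT and 987 to 2924 in Myo10_m1J. It was 105 to 151 in 3 Disp1_WT embryos and 1261 in Disp1_WT replicate 3, which also carried 899 TPM of 14 trophoblast and decidua genes against 110 to 177 in the other E9.5 embryos. At E8.5 Myo10_m1J replicate 2 carried 345 TPM of the latter genes against 30.9 to 97.9 in the other embryos. The surface ectoderm list of 13 genes summed to 117 to 138 TPM at E9.5 and 44.7 to 74.6 TPM at E8.5.

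The largest differences among the groups lay between the wild types of the ages. Foxa3, Krt8, Krt18, Cldn6 and Epcam were lower in Disp1_WT (E9.5) than in Myo10_WT (E8.5) under each of 4 scalings, while Foxa1 was higher, passing in 3 of the 4. By limma on log2(TPM + 1), with Benjamini-Hochberg adjustment over all genes tested and a threshold of 0.05, 8 of the 9 tested members passed, 3 higher and 5 lower at E9.5. The 5 lower include Foxa3, which passed the filter only through the E8.5 libraries. Of all 13397 genes tested 79.6% passed, 69.4% higher and 10.2% lower, and the median difference of all genes was 0.62 on the log2 scale, against -0.30 for the 9 members. Age and mouse line cannot be told apart in this comparison, nor can either be told apart from the difference in library composition. To bound the effect of scaling, the fit was repeated with the structural RNAs left out, with median-of-ratios scaling and with protein-coding genes only. The last of these also left out replication histone and mitochondrial genes.

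Foxa3, a forkhead factor of the gut tube and liver, differed most. It stood at 0.651, 1.29, 1.50 and 0.979 TPM in Disp1_WT replicates 1 to 4 and at 4.83, 6.08, 6.20 and 4.12 TPM in Myo10_WT replicates 1 to 4. Every E9.5 wild type lay below every E8.5 wild type. The difference was -1.59 on the log2(TPM + 1) scale (SE 0.16, limma adjusted p = 4.22e-06), a scale that understates the fold at these low levels, and the mean at E9.5 was 20.8% of that at E8.5. It lay between -2.39 and -2.04 under the other 3 scalings. As deposited, Foxa3 reached 1 TPM in Disp1_WT replicates 2 and 3 only, but in every Myo10_WT embryo. It thus passed the filter only through the E8.5 libraries, where it was higher, so its call as lower at E9.5 is not support. The mutants of each age stood on the same side: 0.576 to 1.19 TPM in Disp1_CS_INDEL and 2.62 to 6.07 TPM in Myo10_m1J.

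Foxa1, its paralog in foregut, lung and other endoderm and also in the floor plate, differed the other way. It stood at 9.16, 8.44, 7.83 and 8.40 TPM in Disp1_WT and at 4.09, 4.62, 3.65 and 3.27 TPM in Myo10_WT. All E9.5 values lay above all E8.5 values, by 0.95 on the log2 scale (SE 0.12, limma adjusted p = 1.99e-05). Relative to the median of all genes the excess was 0.33. It was 0.46 without the structural RNAs (limma adjusted p = 0.0019) and 0.37 with median-of-ratios scaling (limma adjusted p = 0.00185), and with protein-coding genes only it was 0.22 and did not pass (limma adjusted p = 0.0536). The ratio of Foxa1 to Foxa3 within an embryo does not depend on the scaling: it was 5.20 to 14.1 in Disp1_WT, 6.83 to 12.5 in Disp1_CS_INDEL, 0.589 to 0.846 in Myo10_WT and 0.327 to 0.867 in Myo10_m1J. Of 11 tested notochord and floor plate genes 8 passed as higher and 1 as lower by limma, against 69.4% and 10.2% of all genes. Their median was 1.53, against 0.62 for all genes. With median-of-ratios scaling 7 and 2 passed (median 0.91), against 36.4% and 36.2% of all genes. The part of the floor plate in the Foxa1 level was not tested. Foxa1 was the more abundant of the pair in every E9.5 embryo and the less abundant in every E8.5 embryo.

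Hhex, the homeodomain factor of the foregut, liver and thyroid buds and of endothelial precursors, did not pass as deposited. It stood at 3.68, 2.91, 3.19 and 3.41 TPM in Disp1_WT and at 3.05, 3.35, 2.70 and 2.27 TPM in Myo10_WT, with overlapping ranges and a log2 difference of 0.17 (SE 0.12, limma adjusted p = 0.229). The sign depended on the scaling: it was -0.29 without the structural RNAs, -0.34 with median-of-ratios scaling and -0.53 with protein-coding genes only, and passed as lower in all 3. Pdx1 stood at 0.338, 0.219, 0.887 and 0.518 TPM in Disp1_WT and at 0.652, 1.38, 0.753 and 0.502 TPM in Myo10_WT. Its ranges overlapped, and it reached the filter only with protein-coding genes only, where the difference was -0.75 on the log2 scale. It passed that filter only through the Myo10_WT libraries, where it was higher, so its call there as lower at E9.5 is not support.

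The keratins of simple epithelium were about equally shifted. Krt8, the type II keratin, stood at 274, 273, 215 and 226 TPM in Disp1_WT and at 443, 568, 472 and 365 TPM in Myo10_WT. Krt18, its type I partner, stood at 206, 216, 201 and 189 TPM in Disp1_WT and at 387, 479, 389 and 307 TPM in Myo10_WT. For both, every E9.5 wild type lay below every E8.5 wild type. Krt8 differed by -0.89 (SE 0.13, limma adjusted p = 6.47e-05) and Krt18 by -0.93 (SE 0.11, limma adjusted p = 1.67e-05) on the log2 scale, and under the other scalings by -1.77 to -1.48 and -1.80 to -1.52. The ratio of Krt18 to Krt8 was 0.827 ± 0.0786 in Disp1_WT, 0.871 ± 0.0633 in Disp1_CS_INDEL, 0.846 ± 0.0204 in Myo10_WT (SD, n = 4 each) and 0.827 ± 0.0668 in Myo10_m1J (SD, n = 5). It overlapped among all 4 groups.

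Krt19, a type I keratin that can also pair with Krt8, did not follow them. It stood at 54.8, 48.0, 36.0 and 48.5 TPM in Disp1_WT and at 34.5, 40.3, 37.7 and 38.2 TPM in Myo10_WT. The lowest E9.5 value, in replicate 3, fell inside the E8.5 range. The difference of 0.29 passed narrowly as higher (SE 0.12, limma adjusted p = 0.0384). It missed the threshold when Disp1_WT replicate 1, 2 or 4 or Myo10_WT replicate 1, 3 or 4 was left out, with limma adjusted p from 0.0565 to 0.124, and the sign turned under the other 3 scalings (-0.29, -0.37 and -0.57). The ratio of Krt8 to Krt19 was 4.66 to 5.97 in Disp1_WT and 9.55 to 14.1 in Myo10_WT, so their balance differed between the wild types without overlap whatever the scaling.

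Epcam and the claudins divided in the same way. Epcam stood at 49.5, 48.9, 46.2 and 47.5 TPM in Disp1_WT and at 62.0, 64.4, 56.4 and 54.5 TPM in Myo10_WT, without overlap. Its difference was -0.30 (SE 0.074, limma adjusted p = 0.00334), and -1.17 to -0.88 under the other scalings. Cldn6, a claudin of embryonic epithelia, stood at 121, 110, 134 and 118 TPM in Disp1_WT and at 165, 183, 156 and 131 TPM in Myo10_WT. The ranges overlapped through the highest E9.5 embryo, replicate 3, and the lowest E8.5 embryo, replicate 4. The Cldn6 difference was -0.39 (SE 0.10, limma adjusted p = 0.00446), and -1.26 to -0.98 under the other scalings.

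Cldn4, a tight junction claudin of later epithelia as well, was 44.0, 39.9, 36.8 and 40.0 TPM in Disp1_WT and 25.4, 26.9, 19.0 and 31.4 TPM in Myo10_WT. All E9.5 values were above all E8.5 values as deposited, by 0.64 (SE 0.13, limma adjusted p = 0.00093), about the 0.62 median of all genes. It did not pass under any other scaling, at 0.07 without the structural RNAs, -0.02 with median-of-ratios scaling and -0.21 with protein-coding genes only. The ratio of Cldn4 to Cldn6 was 0.275 to 0.364 in Disp1_WT and 0.122 to 0.241 in Myo10_WT, again without overlap. As deposited, Foxa1 and Cldn4 were higher and Foxa3, Epcam, Krt8 and Krt18 lower at E9.5 without overlap between the wild types, which held for 66.1% (higher) and 7.96% (lower) of all genes tested.

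**Figure D2:**
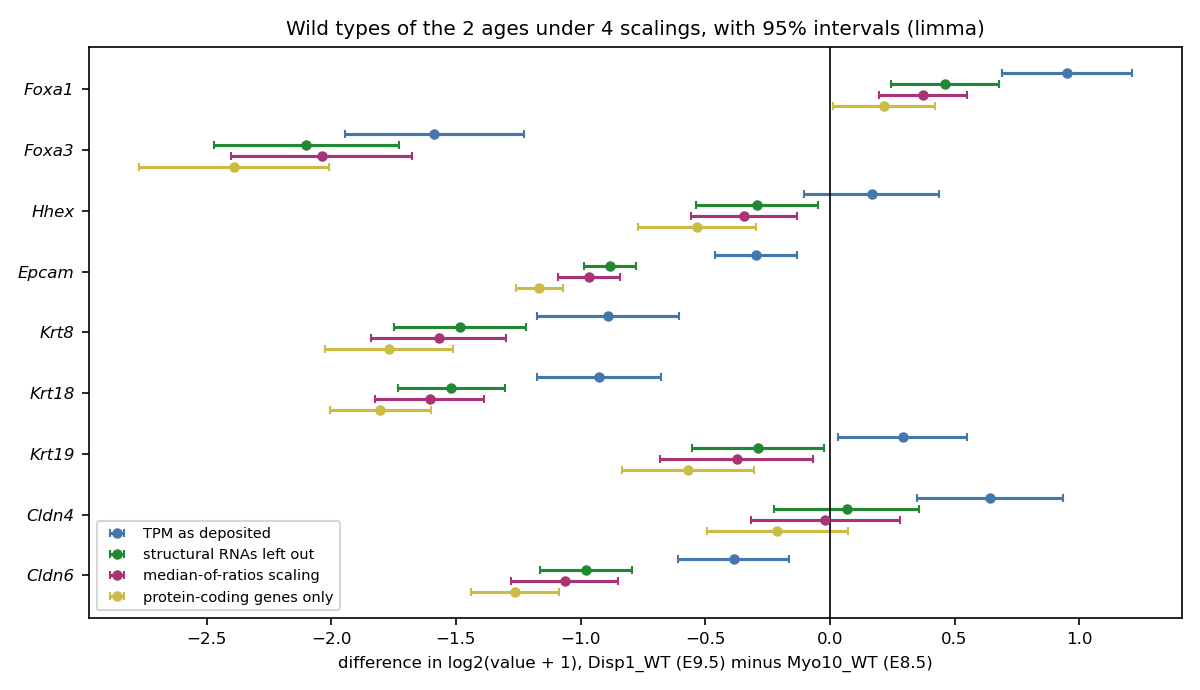
Difference between Disp1_WT (E9.5) and Myo10_WT (E8.5), n = 4 each, in log2(value + 1) for the 9 tested genes under 4 scalings, with 95% intervals from limma. Foxa3, Krt8, Krt18, Epcam and Cldn6 lie below 0 under all 4, Foxa1 lies above 0 under all 4, and Hhex, Krt19 and Cldn4 change sign.

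Under median-of-ratios scaling, where 36.4% of all genes passed as higher and 36.2% as lower at E9.5, 1 member passed as higher and 7 as lower. With structural RNAs left out the members were 1 higher and 6 lower of 9 (all genes 40.2% and 29.7%), and with protein-coding genes only 0 higher and 8 lower of 10 (all genes 26.5% and 45.7%). The 8 include Pdx1, which passed that filter only through the E8.5 libraries. Foxa3 is among the lower members under each scaling, with the limit of the filter given above. As deposited, 18 of the 19 yolk sac genes passed as lower at E9.5, against 10.2% of all genes, with a median difference of -3.41. Some, such as Cubn and Slc2a2 (medians 0.538 and 0.190 TPM in Disp1_WT), passed the filter only through the E8.5 libraries. Their calls are therefore not support. The part of yolk sac RNA in the age differences was not tested. In whole embryos, fewer cells of a type and less RNA per cell cannot be told apart.

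**Figure D3:**
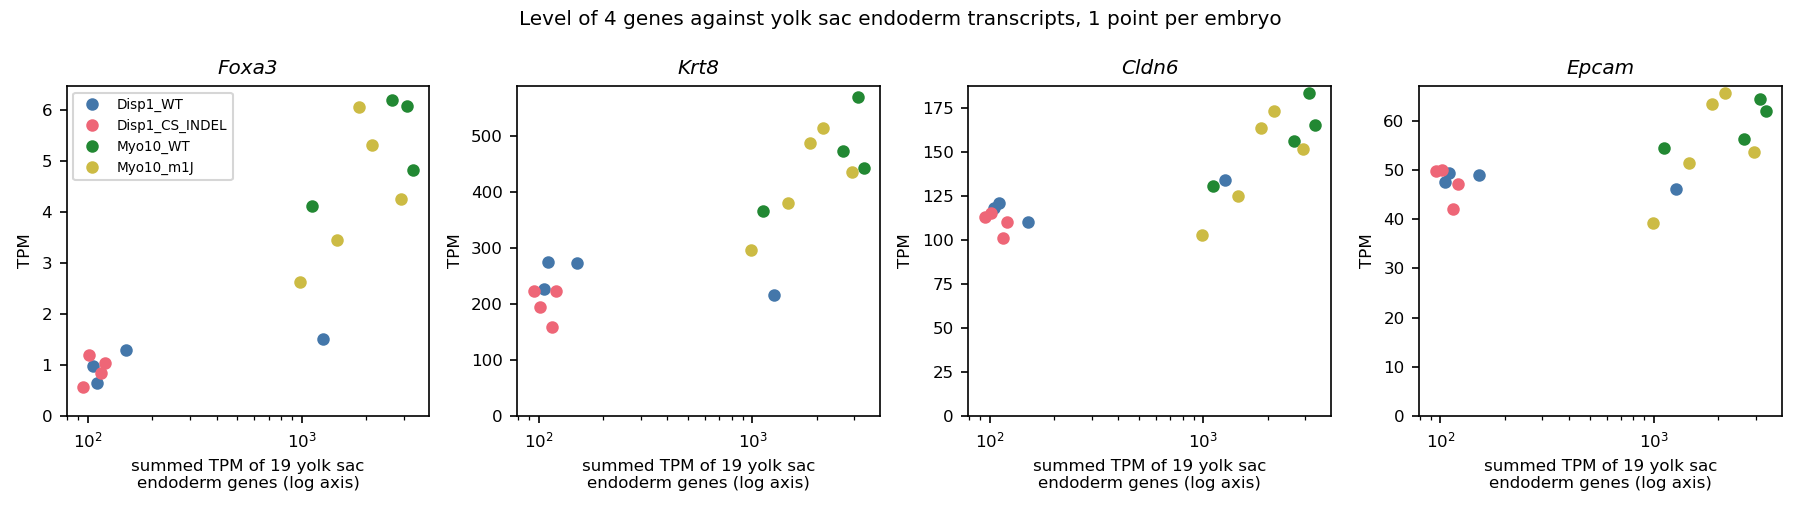
Level (TPM, linear axis from 0) of Foxa3, Krt8, Cldn6 and Epcam in each of the 17 embryos against the summed TPM of 19 yolk sac endoderm genes (log axis), coloured by group. Disp1_WT replicate 3 sits at 1261 TPM of yolk sac transcripts, apart from the other 7 E9.5 embryos, with Krt8 at 215 TPM within their range and Foxa3 at 1.50 TPM, the highest at E9.5 and below every E8.5 embryo.

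Genes of the same tissues from the wider lists were mixed, and their counts stand against 69.4% higher and 10.2% lower of all genes tested (median 0.62). A gene below 1 TPM in every embryo of 1 age passed the filter only through the other age. Of 23 tested endoderm and gut regional factors 8 passed as higher and 8 as lower at E9.5, with a median difference of -0.22. Nkx2-1, which also marks ventral forebrain (2.27), Onecut1, a liver and pancreas factor (1.88), and the ligand Shh (1.75, limma adjusted p = 7.26e-07) were higher. Nkx2-1 and Onecut1 were at most 0.0943 and 0.237 TPM in Myo10_WT, so the filter fixed their direction and their calls are not support. Of 13 tested adhesion and junction genes 1 passed as higher, Cldn3 (1.43, limma adjusted p = 5.75e-06), and 5 as lower, among them the tricellular junction receptor Lsr (-0.79, limma adjusted p = 3.06e-05) and occludin, Ocln (-0.93, limma adjusted p = 0.00014). Of 16 tested epithelial regulators and keratins 2 passed as higher, the simple keratins Krt7 (1.71, limma adjusted p = 3.76e-07) and Krt20 (1.56). The 5 that passed as lower were led by the protease inhibitor Spint1 (-1.22, limma adjusted p = 1.53e-06). Krt20 was at most 0.765 TPM in Myo10_WT, so the filter fixed its direction too. Of 10 tested surface ectoderm genes 8 passed as higher and 1 as lower, against 69.4% and 10.2% of all genes, with a median of 1.40.

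The balance of these lists moved with the scaling, while the 9 genes just named kept their direction and passed by limma under all 4. For Nkx2-1, Onecut1 and Krt20 the limit of the filter given above remains. With median-of-ratios scaling 1 adhesion and junction gene was higher and 11 were lower of 13, with a median of -0.86 (all genes 36.4% higher and 36.2% lower). Epithelial regulators and keratins were then 2 higher and 13 lower of 16 (median -0.54), and gut regional factors 5 higher and 11 lower of 23 (median -0.85). Surface ectoderm genes stayed mostly higher, 7 against 2 of 10 (median 0.84). Under that scaling Cldn3, a claudin like Cldn4 and Cldn6, was higher by 0.83, Krt7 by 1.13 and Krt20 by 1.23, and Spint1 was lower at -1.87 and Ocln at -1.48. Cldn3 and Krt7 were thus higher at E9.5 where Cldn6, Krt8 and Krt18 were lower.

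In the Disp1 comparison at E9.5, no member passed the threshold, and the most negative differences were those of Krt8 and Krt18. By limma 0 of 9 members were called, with adjusted p of 1.00 throughout, against 4 of all 13294 genes (0.0301%). At an unadjusted p below 0.05 there were 2 members and 301 of all genes (2.26%). Of the 9 members 7 had a negative difference, as did 43.7% of all genes tested, and 2 a positive one, with a median of -0.13 on the log2 scale against 0.0097 for all genes. Without Disp1_WT replicate 3, the embryo rich in yolk sac transcripts, 8 members were tested, 0 were called, 7 were negative and the median was -0.13.

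Krt18 was the 1 tested member whose genotypes did not overlap, and 0.654% of all genes tested were lower in the mutants without overlap. It stood at 206, 216, 201 and 189 TPM in Disp1_WT and at 182, 137, 188 and 187 TPM in Disp1_CS_INDEL, where the mean was 85.4% of the wild-type mean. The gap between the groups was narrow, from 188 to 189 TPM, and Disp1_CS_INDEL replicate 2 stood well below the rest. The difference was -0.24 (SE 0.096, 95% interval -0.45 to -0.022, limma adjusted p = 1.00), and -0.13 without that embryo.

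Krt8 stood at 222, 159, 223 and 194 TPM in Disp1_CS_INDEL against 274, 273, 215 and 226 TPM in Disp1_WT. Replicates 1 and 3 of the mutants lay between the lower pair of wild types, so the ranges overlapped. The difference was -0.31 (SE 0.12, 95% interval -0.57 to -0.051, limma adjusted p = 1.00). It was -0.21 without Disp1_CS_INDEL replicate 2 and -0.38 without Disp1_WT replicate 3. Krt19 stood at 39.9, 35.1, 43.0 and 44.6 TPM in the mutants, with a difference of -0.19 (95% interval -0.46 to 0.077, limma adjusted p = 1.00) that was -0.31 without Disp1_WT replicate 3. Disp1_CS_INDEL replicate 2 was the lowest E9.5 embryo in all 3 keratins, and in Epcam (42.1 TPM), Cldn6 (101 TPM), Cldn4 (36.5 TPM) and Foxa1 (6.40 TPM).

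The other members differed by less. Foxa1 (-0.14, 95% interval -0.36 to 0.072), Foxa3 (-0.13, -0.48 to 0.21) and Cldn6 (-0.13, -0.28 to 0.014) had negative differences that did not pass. Epcam differed by -0.03 (95% interval -0.16 to 0.11), Cldn4 by 0.03 (-0.14 to 0.21) and Hhex by 0.06 (-0.15 to 0.27). These intervals do not show that the levels were alike. Pdx1 was 0.631, 0.398, 0.815 and 0.592 TPM in the mutants, within the wild-type range of 0.219 to 0.887 TPM.

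By limma the gut, adhesion, keratin and yolk sac lists had 0 called genes in the Disp1 comparison. The notochord and floor plate list, which shares Shh with the gut list, had 1 called of 11, the Hedgehog-responsive homeobox gene Nkx2-9, which was lower by 0.99 on the log2 scale (-0.99, SE 0.11, limma adjusted p = 0.0209). Of 23 gut regional factors 15 were negative, against 43.7% of all genes tested. The smallest p-values of this list belonged to Nkx2-1 (-0.74, limma adjusted p = 0.702), Foxa2 (-0.43, limma adjusted p = 0.793) and Shh (-0.20, limma adjusted p = 1.00). Of 13 adhesion and junction genes 10 were negative, with E-cadherin, Cdh1, first (-0.22, SE 0.063, limma adjusted p = 1.00). Of 15 epithelial regulators and keratins 10 were negative, with a median of -0.06. The 10 tested yolk sac genes had a median of -0.97 with all embryos and -0.10 without Disp1_WT replicate 3.

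In the Myo10 comparison at E8.5, all 9 tested members had a negative difference and none passed, and 94.0% of all genes tested were negative too. By limma 0 of 9 were called, against 1 of 12560 genes (0.00796%), and at an unadjusted p below 0.05 there were 1 member and 854 genes (6.80%). The members' median difference was -0.16 and so was that of all genes tested. The structural RNA share was 38.1% ± 4.47 in Myo10_m1J (SD, n = 5) and 33.7% ± 3.49 in Myo10_WT (SD, n = 4). Under median-of-ratios scaling Epcam, Krt8, Krt18, Krt19, Cldn4 and Cldn6 turned positive, between 0.02 and 0.19.

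Foxa1 was the 1 tested member whose genotypes did not overlap at E8.5, and 0.963% of all genes tested were lower in the mutants without overlap. It stood at 3.09, 1.39, 2.99, 2.04 and 3.14 TPM in Myo10_m1J and at 4.09, 4.62, 3.65 and 3.27 TPM in Myo10_WT. All 5 mutants lay below all 4 wild types, with the lowest value in replicate 2, and the mutant mean was 64.8% of the wild-type mean. The difference was -0.50 (SE 0.18, 95% interval -0.88 to -0.12, limma adjusted p = 0.473). Relative to the median of all genes it was -0.34, and with median-of-ratios scaling -0.35 (limma adjusted p = 0.767). Without Myo10_m1J replicate 2, the embryo with the most trophoblast and decidua RNA at E8.5, it was -0.37 (limma adjusted p = 0.349).

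The remaining factors overlapped. Foxa3 stood at 5.33, 4.26, 3.45, 2.62 and 6.07 TPM in Myo10_m1J, with a difference of -0.27 (95% interval -0.69 to 0.16). Hhex stood at 2.72, 2.63, 2.15, 1.54 and 2.93 TPM in Myo10_m1J, with a difference of -0.19 (95% interval -0.52 to 0.15). Myo10_m1J replicate 4 was the lowest for both. Pdx1 was 0.374, 0.625, 0.573, 0.434 and 1.04 TPM in Myo10_m1J, overlapping the wild types.

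Krt8, Krt18, Epcam and Cldn6 shared an order of the Myo10_m1J embryos, replicates 1, 5, 2, 3 and 4 from highest to lowest. Krt8 stood at 513, 435, 379, 295 and 488 TPM in Myo10_m1J, with a difference of -0.14 (95% interval -0.49 to 0.21). Krt18 stood at 465, 315, 309, 245 and 417 TPM, with a difference of -0.18 (95% interval -0.56 to 0.20). In both keratins mutant replicate 4 lay below all wild types and the other 4 mutants within the wild-type range. Epcam was 65.7, 53.7, 51.4, 39.2 and 63.5 TPM (difference -0.13, 95% interval -0.43 to 0.16), and Cldn6 was 173, 151, 125, 103 and 163 TPM (difference -0.16, 95% interval -0.49 to 0.16). Here too replicate 4 was lowest and replicates 1 and 5 highest. Replicate 4 had the highest structural RNA share of all libraries, 44.5%, and the lowest yolk sac sum at E8.5, 987 TPM, and the part of either in its levels was not tested.

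Krt19 and Cldn4 did not share that order. Krt19 was 29.4, 38.3, 43.2, 41.0 and 37.2 TPM in Myo10_m1J, with a difference of -0.0041 (95% interval -0.25 to 0.24). Cldn4 was 23.4, 23.8, 29.2, 24.6 and 20.6 TPM, with a difference of -0.06 (95% interval -0.37 to 0.24). Mutant replicate 1, among the highest in Krt8, Krt18, Epcam and Cldn6, was the lowest of all 17 embryos in Krt19.

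**Figure D4:**
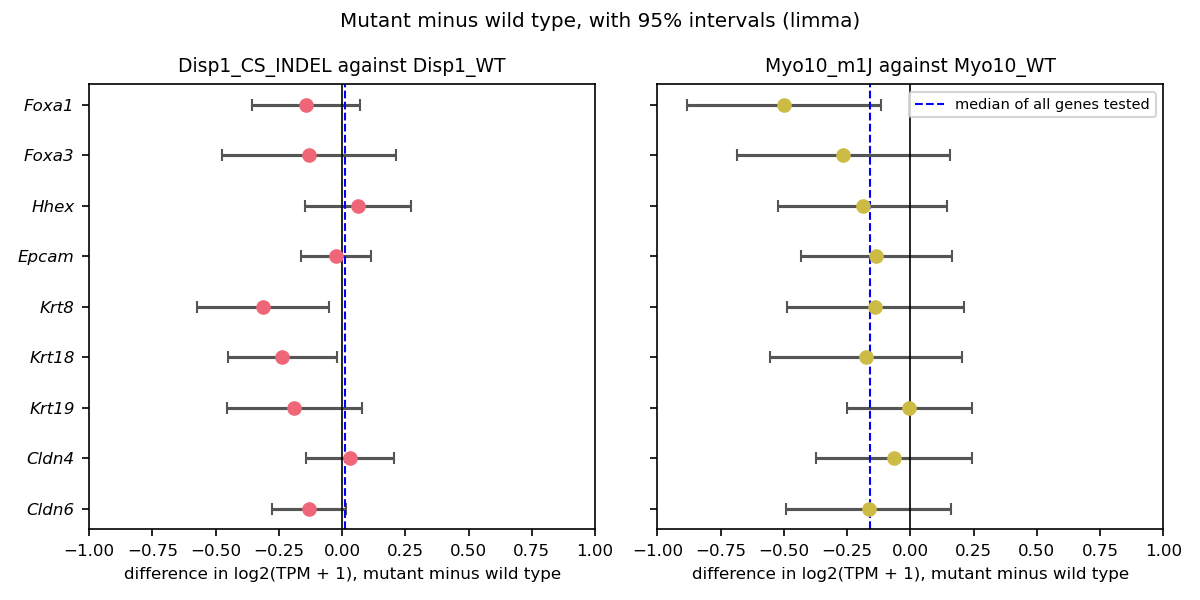
Difference in log2(TPM + 1), mutant minus wild type, for the 9 tested genes with 95% intervals from limma, in the Disp1 comparison (E9.5, n = 4 and 4) and the Myo10 comparison (E8.5, n = 5 and 4). The dashed line is the median of all genes tested, 0.0097 and -0.16, and the intervals of Krt8 and Krt18 on the left and Foxa1 on the right lie wholly below 0 without passing the adjusted threshold.

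The lists around these genes had 0 called genes in the Myo10 comparison by limma, and their counts of negative differences stand against 94.0% of all genes. Of 20 tested gut regional factors 14 were negative, with a median of -0.24, and Foxa2 (-0.40) and Gata6 (-0.37) were among those with the smallest p-values, each with a limma adjusted p of 0.473. Of 13 adhesion and junction genes 12 were negative, led by the apical polarity gene Crb3 (-0.37, limma adjusted p = 0.473). Of 15 epithelial regulators and keratins 14 were negative, with a median of -0.18, led by Spint2 (-0.33, limma adjusted p = 0.473). All 19 yolk sac genes were negative, with a median of -0.41.

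The mutant effects were not shown to differ between the experiments. In a fit of all 17 embryos, 0 of 9 members passed for the difference of the Disp1 and Myo10 effects, against 3 of 13910 genes (0.0216%). At an unadjusted p below 0.05 there were also 0 members. Foxa1 had the largest, at 0.36 (95% interval -0.096 to 0.81, limma adjusted p = 0.586), followed by Hhex at 0.25 (-0.13 to 0.63, limma adjusted p = 0.586), Krt19 at -0.19 (-0.55 to 0.17) and Krt8 at -0.17 (-0.65 to 0.30).

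Among embryos of the same group, part of the members varied together. The likeness was measured as Pearson's r of the deviations of log2(TPM + 1) from the group means over the 17 embryos, which share library composition, and is a description. Epcam and Krt18 (0.919), Krt8 and Krt18 (0.919), Cldn6 and Hhex (0.897), and Cldn6 and Epcam (0.878) were the most alike pairs of members. Krt19 had r between -0.20 and 0.02 with Krt8, Krt18, Epcam and Hhex, -0.49 with Foxa3, -0.41 with Cldn6 and 0.42 with Cldn4. Cldn4 and Foxa3 had the lowest value of any pair, -0.61.

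The genes most like each member among 9980 or 9981 candidates with a mean of at least 5 TPM were named by rule. For Krt18 they were Spint2 (0.959), an inhibitor of epithelial serine proteases, the polarity gene Pard6b (0.925) and Epcam (0.919). For Krt8 they were the epithelial polarity gene Llgl2 (0.954), Mthfd1 (0.941) and Smad6 (0.927). For Epcam they included Hmga1 (0.970) and Zscan10 (0.957), and for Cldn6 they were Hadh (0.983), Emb (0.971) and Dpp4 (0.957). For Hhex they were Tmbim6 (0.963), Efl1 (0.951) and Lrrc59 (0.948). The likeness was lower for Foxa3, whose first gene was Pi4k2b (0.922), for Foxa1, with Zcchc10 (0.827), and for Krt19, with Hoxd1 (0.808). For Cldn4 the first were the adhesion gene Cadm1 (0.915) and the claudin Cldn11 (0.886), and for Pdx1 the first was Uqcc3 (0.806).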

How the data were processed

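Whole single embryos were flash frozen during genotyping, and TruSeq libraries were made from RNA purified together, per the labels' protocols, though the composition of the libraries differs between the ages. The authors deposited TPM per gene symbol for all 17 libraries. The build is GRCm39 (mm39) per the submitters' processing notes, and the software and gene models behind the values are not stated in what was used here. Depth and counting error are unknown, since TPM holds neither.

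Groups came from the sample titles, and each sample is a separate embryo. Genes that reached a TPM of 1 in 4 or more libraries of the comparison were fitted on log2(TPM + 1) with limma 3.58.1 in R 4.3.3 (mean-variance trend, Benjamini-Hochberg over all genes tested, threshold 0.05), a scale that understates changes of low genes. The structural RNA rows numbered 336. The members and lists were chosen with earlier results of these data known. All 10 members are named, and of each list the 3 tested genes with the smallest p, and per member the 3 genes most alike. Not all of these are reported here. Sox17, Cdx2 and Ptf1a were chosen with values in view. Alternatives were another pseudocount (0.1), filter, scaling, trend, joint fit, yolk sac covariate, replicate block and each embryo left out. The fit was tested on simulated data with 50 changed genes per size. In the Disp1 case (13346 genes) it recovered 68% of genes changed by 0.5 and 96% of those changed by 1. It recovered 40% and 92% in the Myo10 case (12570 genes), and 50% and 94% in the age case (13196 genes). These percentages are not the power of the real fits, and they are not split by level. In the real Disp1 fit 4 of 13294 genes passed. There Nkx2-9 (-0.99, limma adjusted p = 0.0209) passed. Nkx6-1 (-0.53, limma adjusted p = 0.417) and Nkx2-1 (-0.74, limma adjusted p = 0.702) did not. Promoter windows came from RefSeq (GRCm38.p6). No sample was left out.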

Additional observations from a re-analysis of the deposited data

Results flagged for a closer look

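In 1 of the 40 combinations of a gene and a group of 4 or 5 embryos, a single embryo stood far from the others of its group. Krt18 was 137 TPM in Disp1_CS_INDEL replicate 2, and the nearest other mutant was at 182 TPM, a gap of 0.894 of the range of the group. Chance alone marks about 1 in 20 such groups. The cause was not tested.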

How the results depend on the processing

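The number of members called was 0 under every alternative run for the Disp1 and Myo10 comparisons and for the difference of their effects. In the age comparison it was 7 or 8, also over the fits that leave out 1 embryo (lowest 7, highest 8). With a mean TPM of at least 5 fewer members were tested, and 7 were called. Krt19 missed the threshold in the age comparison without the filter (limma adjusted p = 0.067) and without the trend (limma adjusted p = 0.052). Median-of-ratios scaling lowered all 20 E9.5 group means and raised all 20 E8.5 group means, 16 and 17 of them by over 1 SD. Depth is unknown, so how it limits Pdx1, Foxa3 and Hhex, the lowest members, cannot be stated. Protein-coding scaling was added after seeing the data.

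Signs turned as follows, on the log2 scale, with the cause not tested. In the Disp1 comparison Cldn4 was -0.017 with the yolk sac covariate, and over left-out embryos it ran from -0.0081 to 0.086 and Epcam from -0.054 to 0.028 (positive without Disp1_CS_INDEL replicate 2). In the Myo10 comparison median-of-ratios scaling gave Epcam 0.060, Krt8 0.059, Krt18 0.021, Krt19 0.19, Cldn4 0.13 and Cldn6 0.033. There Krt8 was 0.00061 with the yolk sac covariate, Krt19 and Cldn4 were 0.094 and 0.032 without the structural RNAs and 0.11 and 0.049 with protein-coding genes only, and over left-out embryos Krt19 ran from -0.053 to 0.081 and Cldn4 from -0.20 to 0.036. In the age comparison Hhex, Krt19 and Cldn4 were -0.34, -0.37 and -0.018 with median-of-ratios scaling and -0.53, -0.57 and -0.21 with protein-coding genes only, and Hhex and Krt19 were both -0.29 without the structural RNAs. For the difference of the effects Epcam, Cldn4 and Cldn6 were -0.082, -0.092 and -0.16 with median-of-ratios scaling and -0.0055, -0.017 and -0.084 with protein-coding genes only, and Cldn4 and Cldn6 were -0.00039 and -0.067 without the structural RNAs. Over left-out embryos that difference ran from -0.0031 to 0.18 for Epcam, -0.18 to 0.052 for Krt18, -0.0037 to 0.23 for Cldn4 and -0.081 to 0.12 for Cldn6.

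The deviations of embryos with the same replicate number had correlations of -0.24 to 0.40 in the Disp1 groups and -0.29 to 0.47 in the Myo10 groups. The main fits did not pair them, and these values cannot show whether they were littermates or processed together. With a replicate block the members called were 0, 0, 8 and 0 in the Disp1, Myo10 and age comparisons and the difference of effects, and the Krt18 difference of effects turned to 0.012.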
